A study of Mus musculus with 6 samples.

Results

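Malat1, Neat1 and the noncoding hosts of small nucleolar RNAs (snoRNAs) were followed in DN3a thymocytes, immature T cell precursors that carry neither CD4 nor CD8 and are rearranging their T cell receptor beta genes. The set was defined by symbol and holds 9 genes, the nuclear long noncoding RNAs Malat1 and Neat1 and the snoRNA hosts Gas5, Snhg1, Snhg3, Snhg5, Snhg6, Snhg8 and Snhg12. Of the 41254 gene symbols in the deposited table, 8 belonged to it, with 60 transcript models, of which 58 had fragments in at least 1 library. Snhg8 had no row and is not analysed here. All 8 genes passed the filter on low counts. The samples were C57BL/6 mice, adult at collection, in a wild-type group of 3 libraries and a transgenic group of 3 libraries with the genotype Tg_Cd2_GATA3. Total RNA was depleted of ribosomal RNA before library preparation, with no poly(A) selection named in the labels. The title of the series asks how the amount of GATA3, a transcription factor of T cell development, bears on allelic exclusion at the beta locus. The labels do not state the founder line, the sex of the mice or whether each library came from its own animal, so p-values reflect the spread between libraries, which may in part be technical. Values listed in threes follow the order of replicates 1, 2 and 3.

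Malat1 and Neat1 are transcribed from neighbouring genes and stay in the nucleus. Malat1 gathers in nuclear speckles, which hold splicing factors, and the long form of Neat1 is the scaffold of paraspeckles, bodies that hold RNA-binding proteins. A snoRNA host gene works differently, since its introns carry snoRNAs that are trimmed from the excised intron and guide the chemical modification or the processing of ribosomal RNA. The spliced exons of hosts such as Gas5 code for no known protein, begin with the pyrimidine tract of genes for ribosomal proteins and are removed during translation by nonsense-mediated decay.

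The libraries held 39022281 to 46985605 fragments. Gata3, the check of the labels, stood at 49.1, 38.2 and 43.5 CPM in wild type (counts scaled to library size with TMM factors) and 58.6, 53.6 and 61.6 CPM in transgenic cells. Its groups did not overlap, but it was not called (log2 fold change 0.41 ± 0.10 SE, adjusted p = 0.17, edgeR quasi-likelihood test). The table names no separate transcript for the transgene. The 12 DN3a thymocyte markers (among them Il2ra, Ptcra, Rag1, Rag2, Notch1 and Cd3e) all had fragments, and their summed level was 9590 to 11301 CPM in wild-type libraries, against 10734 to 11502 CPM in transgenic ones. Of these 12, 8 lay above 0 on the log2 scale (median 0.09) and 0 were called. At an unadjusted p under 0.05 (edgeR), 4 were higher and 1 lower, against 5.71% and 7.70% of all genes. DESeq2 and edgeR without wild-type replicate 1 each called 3 of the 12, all higher, against 5.23% and 3.32% of all genes in either direction. Markers of later thymocytes (Cd4, Cd8a, Cd8b1, Trac, Cd5, Cd69) all had fragments and summed to 38.6 to 42.4 CPM in wild-type libraries, against 23.1 to 29.5 CPM in transgenic ones. Of these 6, 5 lay below 0 on the log2 scale (median −0.57) and 0 were called. Lower at an unadjusted p under 0.05 (edgeR) were 3, and higher 0. The CPM groups of 4 did not overlap, against 18.8% of all genes. Without wild-type replicate 1, edgeR called 1 of the 6, lower, and DESeq2 on all libraries called 0. None of the markers of other cells was called, and the sums that follow cover the genes that passed the filter on low counts. Summed levels of early progenitor markers ran from 56.6 to 76.5 CPM across wild-type libraries and from 66.4 to 81.9 CPM across transgenic ones. Erythroid markers summed to 0.581 to 3.99 and 3.11 to 7.39 CPM, and all 5 that were tested lay above 0 (median 1.5). The B cell genes Ighm and Cd79b summed to 148 to 172 and 134 to 151 CPM, and all transgenic values of Ighm lay below all wild-type values (log2 fold change −0.23, adjusted p = 0.25, edgeR quasi-likelihood test). Of that list Cd79a, Ms4a1 and Pax5 reached at most 13 fragments. Of the NK list Nkg7 stood at 33.1 to 46.9 and 31.2 to 39.9 CPM, and the other 5 genes reached at most 17 fragments. Myeloid markers, led by Lyz2, summed to 21.3 to 25.3 and 24.6 to 27.8 CPM. Of the stromal and endothelial list Epcam and Pecam1 summed to 185 to 209 and 198 to 229 CPM, both above 0 (median 0.14), and the other 5 (Krt5, Krt8, Foxn1, Psmb11 and Col1a1) reached at most 17 fragments. RNA of Y-linked genes was present in wild-type replicate 1 and transgenic replicate 3 only (18522 and 16840 fragments, against 16 to 26 elsewhere).

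None of the 8 RNAs differed between transgenic and wild-type cells beyond the threshold of an adjusted p of 0.05. The background was as low, with 2 of 14653 genes called (0.0136%, edgeR quasi-likelihood test, Benjamini-Hochberg adjustment). Malat1 and Neat1 had higher means in transgenic libraries, by 0.28 and 0.17 on the log2 scale, and were the 2 members with an unadjusted p under 0.05, against 13.4% of all genes (5.71% higher and 7.70% lower). The 6 measured hosts lay between −0.16 and 0.003, with a median of −0.07 beside 0.001 over all genes tested. Of all genes tested, 50.2% lay above 0. Neat1 was the 1 member whose groups of CPM values did not overlap, which held for 18.8% of all genes. In bulk RNA, fewer cells of a type and less RNA per cell cannot be told apart.

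**Figure D1:**
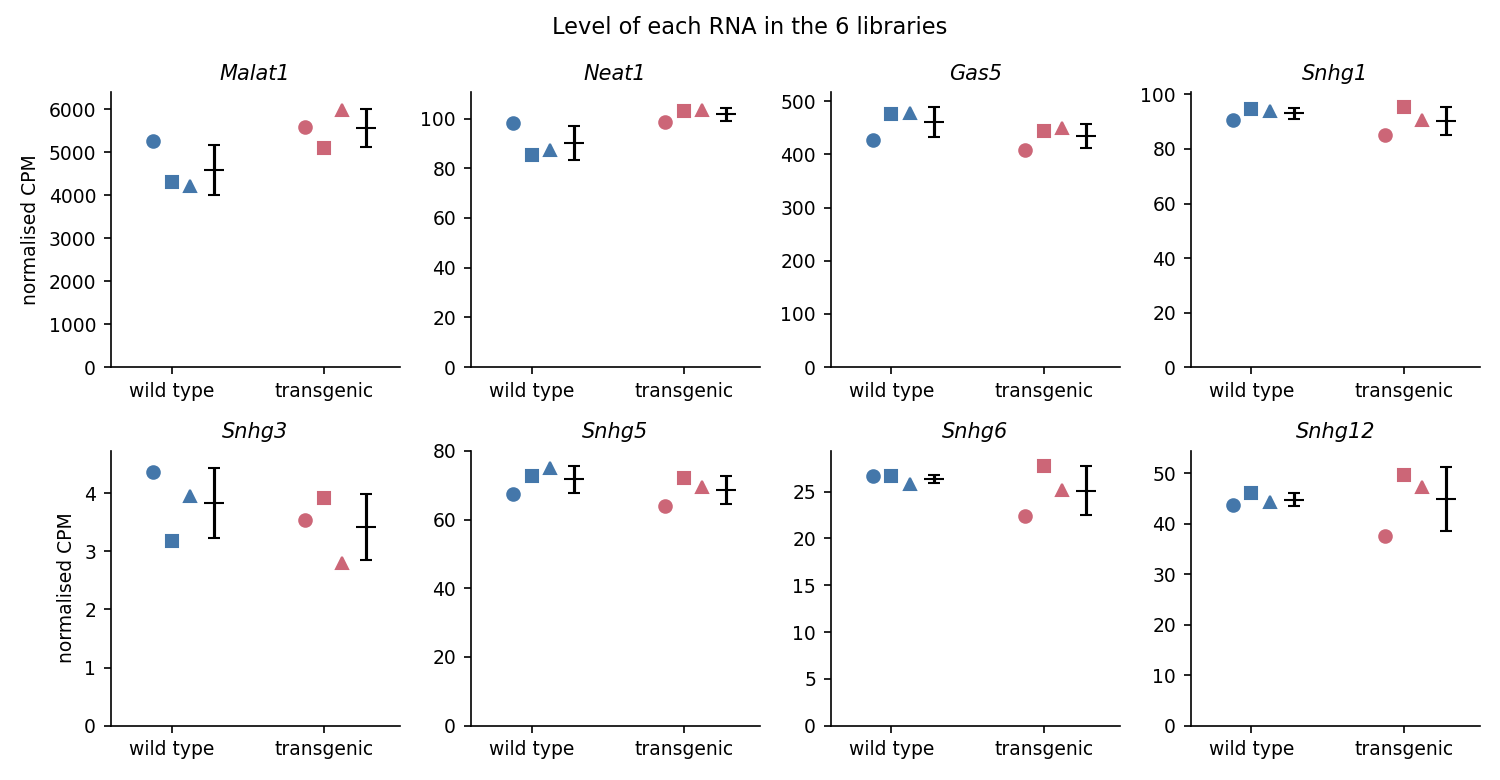
Normalised CPM (y axis, from 0) of the 8 measured RNAs in each wild-type and transgenic library (circles, squares and triangles for replicates 1, 2 and 3), with the mean and SD of 3 libraries beside each group. The transgenic points of Neat1 lie just above all wild-type points (98.7 against 98.1 CPM at the closest), and the points of the other 7 RNAs overlap between the groups.

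By level per length, the wild-type order was led by Malat1 at 960 ± 120 FPKM (fragments scaled to transcript length and library size, SD, n = 3) and Gas5 at 676 ± 57.1 FPKM. Snhg5 followed at 104 ± 7.29 FPKM, Snhg12 at 90.1 ± 0.58 FPKM, Snhg6 at 75.1 ± 0.34 FPKM and Snhg1 at 49.5 ± 2.78 FPKM. Neat1 at 18.8 ± 0.12 FPKM and Snhg3 at 18.6 ± 3.06 FPKM closed the order, and they were the only neighbours in it whose wild-type values overlapped. Among 19559 genes with a wild-type level, Malat1 ranked 149 per length but 3 by its share of all fragments, and Gas5 ranked 189 and 322. Summed over both nuclear RNAs, the level was 979 ± 120 FPKM in wild type and 1214 ± 95.6 FPKM in transgenic cells. Summed over the 6 hosts it was 1013 ± 63.7 and 998 ± 54.4 FPKM (SD, n = 3 each), so the host total differed by less than the spread between libraries.

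Malat1 (ENSMUSG00000092341, chromosome 19, 5795690 to 5802672, minus strand, GENCODE M21 on GRCm38, the mm10 coordinates) was measured at 5257, 4298 and 4214 CPM in wild type and at 5600, 5095 and 5976 CPM in transgenic libraries. Wild-type replicate 1 lay above transgenic replicate 2, so the CPM groups overlapped, while the summed FPKM of 1098, 899 and 883 in wild type and 1163, 1118 and 1300 in transgenic libraries did not. The log2 fold change of 0.28 ± 0.09 SE (95% interval 0.08 to 0.47) had an adjusted p of 0.22 (edgeR quasi-likelihood test).

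The call on Malat1 turned on the tool and on 1 library. It passed with DESeq2 (adjusted p = 0.0202), which called 5.23% of genes, and without wild-type replicate 1 (edgeR, log2 fold change 0.39, adjusted p = 0.0158), a fit that called 3.32%. It also passed in 2 fits chosen after seeing the data, with a covariate for Y-linked RNA (edgeR, adjusted p = 0.0115, 1.75% of genes called) and without the 2 libraries with Y-linked RNA (edgeR, log2 fold change 0.33, adjusted p = 0.0152, 1.76% called). Over its 17 alternatives the adjusted p ran from 0.0115 to 0.582, and the transgenic level was higher in all 17. The part of Y-linked RNA in this difference was not tested beyond those 2 fits. Of the 12 DN3a thymocyte markers, 3 were called higher with DESeq2 and 3 without wild-type replicate 1, and their part in it was not tested.

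Malat1 took 0.524%, 0.425% and 0.418% of all fragments in wild type, and 0.509% to 0.603% in transgenic libraries. All long noncoding RNAs together took 2.14% to 2.34% of fragments in wild type and 2.45% to 2.79% in transgenic libraries. With Malat1, mitochondrial, small and ribosomal RNA left out of the library totals, Malat1 still stood 0.28 higher on the log2 scale (adjusted p = 0.22, edgeR). Mitochondrial genes held at most 0.445% of the fragments of a library, and small and ribosomal RNA at most 0.397%. The totals therefore changed little, and TMM factors offset such changes. For both reasons this fit could hardly differ from the main test, and it does not test a composition effect on Malat1. Of its 5 transcript models, the 6983-base one, the unspliced gene, carried 97.8% ± 0.35 of the gene's fragments in wild type and 97.7% ± 0.13 in transgenic libraries (SD, n = 3 each). A 556-base model was listed at 68.6, 71.3 and 59.4 FPKM in wild type and 109, 84.3 and 112 FPKM in transgenic libraries. Its groups did not overlap, and its adjusted p of 0.68 was the smallest among the member transcripts (edgeR over all transcripts). The share of all transcripts whose groups do not overlap was not counted, so such separations of single models have no background here.

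Neat1 (ENSMUSG00000092274, chromosome 19, 5824708 to 5845478, minus strand) was measured at 98.1, 85.3 and 87.5 CPM in wild type and at 98.7, 102.9 and 103.6 CPM in transgenic libraries. Transgenic replicate 1 and wild-type replicate 1 were almost level, and the other libraries of the groups lay further apart. As summed FPKM the groups overlapped, at 18.6 to 18.9 in wild type and 17.3 to 22.9 in transgenic libraries. The log2 fold change was 0.17 ± 0.06 SE (95% interval 0.03 to 0.32, adjusted p = 0.29, edgeR quasi-likelihood test). Its adjusted p ran from 0.0663 to 0.690 over 17 alternatives, none of which called it. Limma on log2(FPKM + 0.5) called none of the 8 RNAs and 0.0167% of genes.

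The 2 main forms of Neat1 were read apart, although the short one lies within the long one, so that their estimates depend on each other. The 20771-base form, which builds paraspeckles, was listed at 2.93, 2.48 and 2.31 FPKM in wild type and at 3.35, 3.15 and 3.34 FPKM in transgenic libraries. All 3 transgenic values were above all 3 wild-type values, again without a count of such separations over all transcripts. The log2 fold change of 0.32 ± 0.13 SE did not pass (edgeR over all transcripts, adjusted p = 0.86). The polyadenylated 3004-base form was listed at 14.2, 14.2 and 16.4 FPKM and at 11.9, 16.2 and 14.9 FPKM, with overlapping groups. As a share of the gene's FPKM the short form took 75.1%, 76.3% and 86.9% in wild type and 68.7%, 70.5% and 67.7% in transgenic libraries. The shares did not overlap, but 3 libraries against 3 cannot give an exact two-sided permutation p under 0.1, which was the value here (0.4 after adjustment over the 8 genes). In fragments, the shares of 47.1% ± 5.16 and 39.6% ± 4.69 (SD, n = 3 each) overlapped. A 1030-base model ranged from 0.155 to 1.94 FPKM in wild type and from 2.07 to 3.77 FPKM in transgenic libraries.

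The start of a host gene is shown here because it is what the hosts are known to share, and the rule for the set did not use it. Sequences are those of RefSeq (GRCm38.p6) and give, 5′ to 3′, the 40 bases before the annotated start and the first 15 bases from it. The table held starts for 7 of the 9 symbols, and those of the 5 measured hosts and of Malat1 follow, with both of the starts listed for Gas5. Capitals mark the longest run of C and T letters that touches the 10 bases on either side of the start and, further upstream, the letters TATA.
Gas5 (upstream start), chr1:161034561-161034615, plus strand: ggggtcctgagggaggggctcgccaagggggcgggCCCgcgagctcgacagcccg
Gas5 (downstream start), chr1:161035126-161035180, plus strand: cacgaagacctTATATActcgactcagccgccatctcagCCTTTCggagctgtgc
Snhg12, chr4:132308638-132308692, plus strand: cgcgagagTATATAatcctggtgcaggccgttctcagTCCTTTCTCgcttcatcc
Snhg1, chr19:8723447-8723501, plus strand: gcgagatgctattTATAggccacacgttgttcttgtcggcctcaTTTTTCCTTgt
Snhg5, chr9:88522883-88522937, minus strand: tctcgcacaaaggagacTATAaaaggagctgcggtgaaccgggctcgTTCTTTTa
Snhg3, chr4:132353672-132353726, minus strand: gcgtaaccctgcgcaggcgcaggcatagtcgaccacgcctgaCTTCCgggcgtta
Malat1, chr19:5802658-5802712, minus strand: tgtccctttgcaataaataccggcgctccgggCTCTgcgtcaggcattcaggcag

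The runs were 9 letters long in Snhg12 and Snhg1, 7 in Snhg5, 6 at the downstream and 3 at the upstream start of Gas5, 5 in Snhg3 and 4 in Malat1, where the median over 32851 promoters was 4. A run of at least 9 was found in 8.82% of all promoters, one of at least 7 in 19.2% one of at least 6 in 29.2% and one of at least 3 in 82.9%. The letters TATA, looked for after the sequences had been read and ending at least 15 bases before the start, stood in the windows of Snhg12, Snhg1, Snhg5 and the downstream start of Gas5, but not of its upstream start, and in 5.91% of all promoters. The GATA factor motifs (GATAA or GATAG after an A or a T), searched on both strands of the full 300 bases, matched 1 time in Snhg12 and not in the other windows shown, while 29.8% of all promoters held at least 1 match. A match is a description of letters and says nothing of binding.

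Gas5 (ENSMUSG00000053332, chromosome 1, 161034422 to 161038539, plus strand) has exons known to bind the glucocorticoid receptor. Its introns carry snoRNAs with 10 annotated entries, among which Snord80 is repeated. The gene was measured at 427, 475 and 478 CPM in wild type and at 409, 444 and 449 CPM in transgenic libraries. Replicate 1 was the lowest library of both groups, and the groups overlapped. The log2 fold change was −0.08 ± 0.07 SE, with a 95% interval from −0.23 to 0.06 (adjusted p = 0.64, edgeR quasi-likelihood test).

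Gas5 had the most complex transcript set, with 25 models. The 5 of the lincRNA class took 57.9% ± 1.60 of its FPKM in wild type and 60.9% ± 3.47 in transgenic libraries, and the 20 retained-intron models took the rest, 42.1% ± 1.60 and 39.1% ± 3.47 (SD, n = 3 each). The largest model, 502 bases long (ENSMUST00000162558), took 37.3%, 39.1% and 37.0% in wild type and 44.1%, 40.2% and 39.5% in transgenic libraries. These shares did not overlap, at the smallest exact permutation p that the design allows (0.1, adjusted 0.4). By FPKM the same model overlapped, at 229, 283 and 256 against 282, 270 and 278. A 403-base retained-intron model ran the other way, with 17.7, 17.3 and 24.2 FPKM in wild type and 7.22, 4.11 and 13.1 FPKM in transgenic libraries (log2 fold change −1.29 ± 0.50 SE, adjusted p = 0.86, edgeR over all transcripts).

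**Figure D2:**
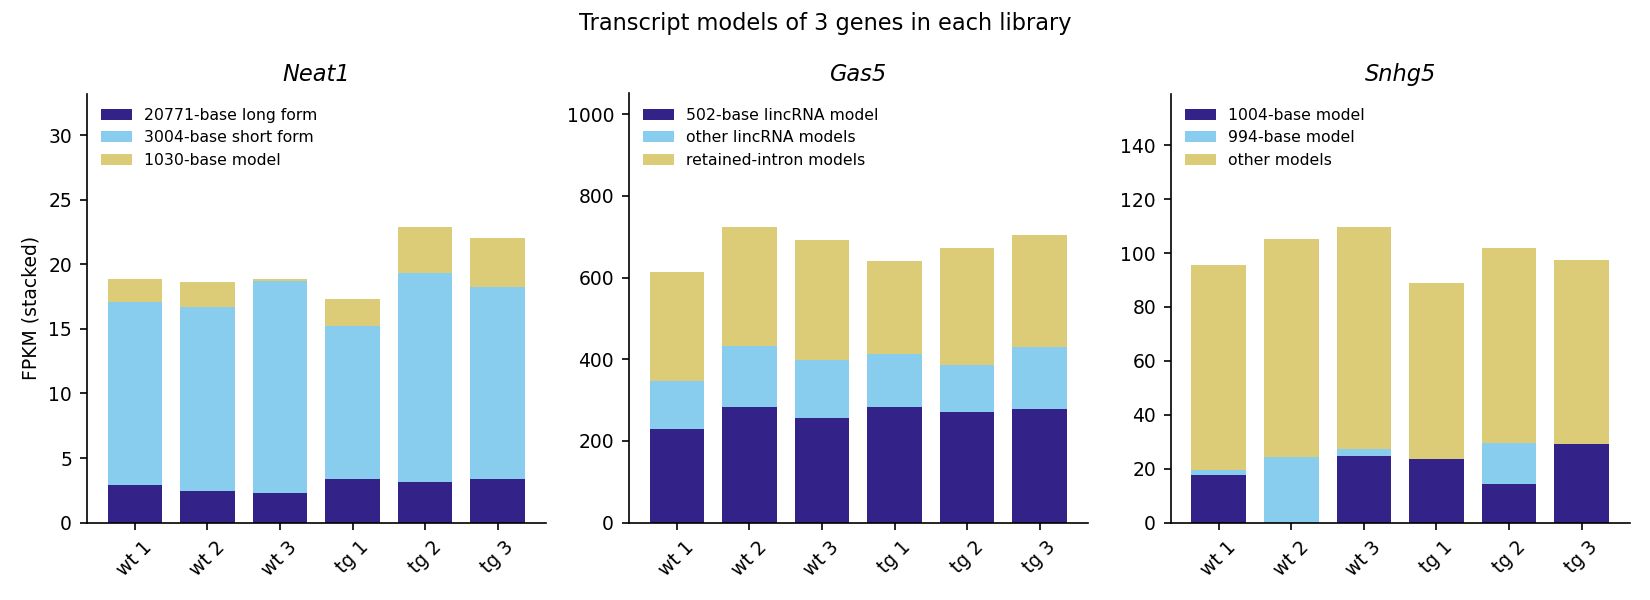
Stacked FPKM (y axis, from 0) of transcript models of Neat1, Gas5 and Snhg5 in each library (wt, wild type; tg, transgenic; replicates 1 to 3). The long form of Neat1 is a thin layer of 2.31 to 3.35 FPKM, retained-intron models of Gas5 make up 35.6% to 43.6% of its level, and the 1004-base and 994-base models of Snhg5 replace each other between libraries.

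Snhg1 (chromosome 19, 8723475 to 8726443, plus strand) hosts 8 annotated snoRNAs of the box C/D kind and was measured at 90.6, 94.5 and 93.8 CPM in wild type and 85.2, 95.4 and 90.7 CPM in transgenic libraries. The transgenic range contained the wild-type range, and the log2 fold change was −0.04 ± 0.06 SE (95% interval −0.17 to 0.09, adjusted p = 0.83, edgeR quasi-likelihood test). Its 2 models in the table, of 2339 and 2719 bases, are not in GENCODE M21 and keep most of the introns, so this value does not count the spliced RNA apart from the precursor.

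Snhg12 (ENSMUSG00000086290, chromosome 4, 132308623 to 132311024, plus strand) stood at 43.7, 46.1 and 44.3 CPM in wild type and spread more widely in transgenic libraries, at 37.6, 49.6 and 47.3 CPM. Its log2 fold change of 0.003 ± 0.11 SE had a 95% interval from −0.23 to 0.24 (adjusted p = 0.996, edgeR quasi-likelihood test), so a difference of up to 1.18-fold either way lies within the interval. Its sign turned negative in 6 of 17 alternatives.

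Snhg5 (ENSMUSG00000097195, chromosome 9, 88521050 to 88522929, minus strand), host of Snord50a and Snord50b, was measured at 67.4, 72.7 and 75.1 CPM in wild type and 64.1, 72.0 and 69.5 CPM in transgenic libraries, again with replicate 1 lowest in both groups. The log2 fold change was −0.07 ± 0.07 SE (95% interval −0.23 to 0.10, adjusted p = 0.77, edgeR quasi-likelihood test). A pair of its models that differ by 10 bases in length traded fragments. The 1004-base model was listed at 17.5, 0.0166 and 24.5 FPKM in wild type and 23.4, 14.3 and 29.2 FPKM in transgenic libraries, and the 994-base model at 2.19, 24.4 and 2.95 and at 0.00199, 15.4 and 0.00693. Their sum ranged only from 19.7 to 29.7 FPKM, less than either model alone, and wild-type replicate 2 was the 1 wild-type library in which the 994-base model was the higher.

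Snhg6 (ENSMUSG00000098234, chromosome 1, 9941959 to 9944118, minus strand), host of Snord87, was measured at 26.6, 26.6 and 25.9 CPM in wild type and 22.4, 27.7 and 25.1 CPM in transgenic libraries. The wild-type values fell within the transgenic range, with a log2 fold change of −0.07 ± 0.10 SE (95% interval −0.29 to 0.15, adjusted p = 0.81, edgeR quasi-likelihood test).

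**Figure D3:**
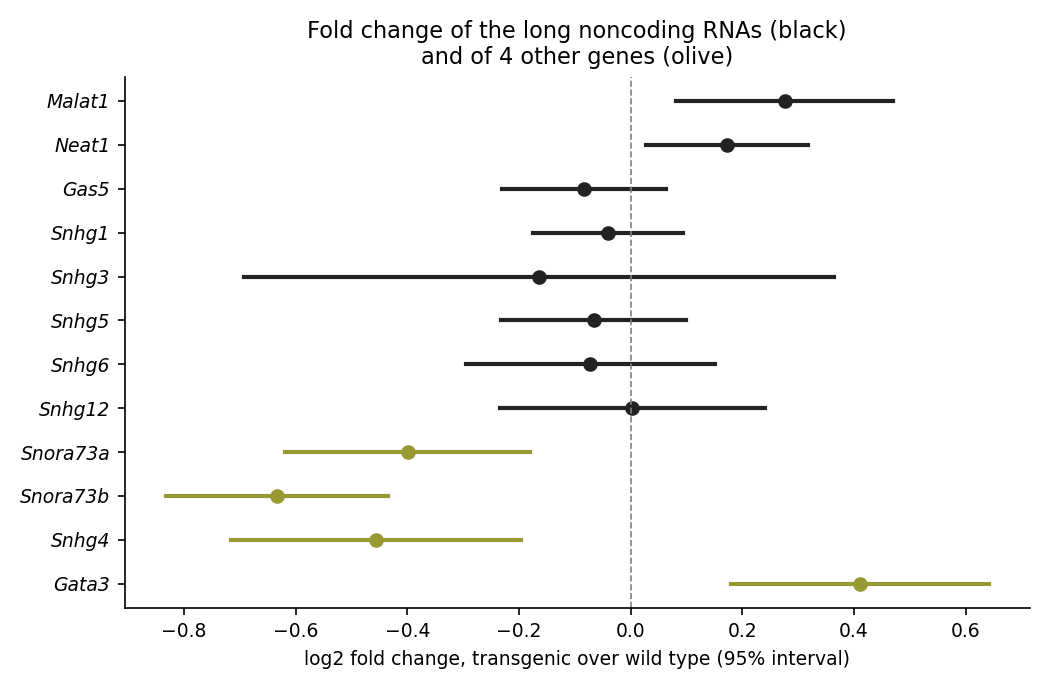
Log2 fold change (x axis, transgenic over wild type) with its 95% interval from the gene-level fit, for the 8 measured RNAs (black) and for Snora73a, Snora73b, Snhg4 and Gata3 (olive). The intervals of Malat1 and Neat1 lie above 0 before adjustment for the number of genes, those of the 6 hosts span 0, and those of Snora73a and Snora73b lie below 0.

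Snhg3 (ENSMUSG00000085241, chromosome 4, 132348014 to 132353686, minus strand) was the rarest host, with 110 to 199 fragments in a library. It was measured at 4.36, 3.18 and 3.94 CPM in wild type and 3.55, 3.91 and 2.79 CPM in transgenic libraries. The groups overlapped and the interval was the widest of the set, from −0.69 to 0.36 (log2 fold change −0.16 ± 0.24 SE, adjusted p = 0.83, edgeR quasi-likelihood test). As a ratio of transgenic to wild type the interval reached from 0.619 to 1.29, so a difference within that range is not excluded.

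The introns of Snhg3 carry Snora73a and Snora73b, copies of the snoRNA U17, which acts in cleavage of the ribosomal RNA precursor rather than in base modification. They are printed because they are the small RNAs of the set with over 100 fragments in every library, 205 bases each, from the GENCODE M21 transcripts on GRCm38, minus strand. Capitals mark the 7 positions at which the copies differ.
Snora73a, chr4:132352775-132352979: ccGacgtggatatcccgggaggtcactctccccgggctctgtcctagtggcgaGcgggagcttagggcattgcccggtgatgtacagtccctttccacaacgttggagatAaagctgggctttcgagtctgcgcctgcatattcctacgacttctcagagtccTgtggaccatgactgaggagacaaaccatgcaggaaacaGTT
Snora73b, chr4:132352322-132352526: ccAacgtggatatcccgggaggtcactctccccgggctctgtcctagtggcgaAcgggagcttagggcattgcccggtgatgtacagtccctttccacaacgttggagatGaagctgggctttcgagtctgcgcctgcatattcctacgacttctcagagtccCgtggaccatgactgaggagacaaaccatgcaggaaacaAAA

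The copies are identical at 198 of 205 positions (96.6%), and both end with the letters ACA 3 bases before the 3′ end, the mark of an H/ACA snoRNA. The sources used here do not say how the authors' counting divided fragments that match both copies, so the split between them is uncertain. Snora73b was measured at 38.7, 43.6 and 37.4 CPM in wild type and at 25.2, 25.8 and 26.1 CPM in transgenic libraries. All transgenic values lay below all wild-type values, with a ratio of the means of 0.645 (log2 fold change −0.63 ± 0.09 SE, 95% interval −0.83 to −0.43, adjusted p = 0.135, edgeR quasi-likelihood test). Snora73a was measured at 79.8, 93.3 and 77.3 CPM in wild type and 59.7, 71.1 and 59.0 CPM in transgenic libraries. These groups did not overlap either, with a ratio of 0.758 (log2 fold change −0.40 ± 0.10 SE, adjusted p = 0.17, edgeR quasi-likelihood test).

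Neither snoRNA passed the main test, and both passed with DESeq2 (adjusted p = 4.2e-06 for Snora73b and 0.00575 for Snora73a). Snora73b also passed with edgeR without a filter on low counts (adjusted p = 0.0143), without wild-type replicate 1 (0.0151), with a covariate for Y-linked RNA (0.00918), without the libraries with Y-linked RNA (0.0256) and with the failed loci kept (0.00878), the last 3 chosen after seeing the data. Over its 16 alternatives the adjusted p ran from 4.2e-06 to 0.413, and the transgenic level was lower in all 16. Of the 28 snoRNA and scaRNA genes tested in the whole table, 14 lay above 0 and 14 below, with a median of −0.04. The summed level of later thymocyte markers was lower in transgenic libraries as well, as given above, and its part in these values was not tested.

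Per fragment of Snhg3, wild-type replicates 1, 2 and 3 held 8.87, 13.7 and 9.48 fragments of Snora73b, and transgenic replicates 1, 2 and 3 held 7.11, 6.61 and 9.35. For Snora73a the ratios were 18.3, 29.3 and 19.6 against 16.8, 18.2 and 21.1. Both sets of ratios overlapped, and they carry the counting error of the few host fragments. Rcc1, a nucleotide exchange factor of the Ran GTPase whose locus in the table is shared with Snhg3, was named after its values were seen. It was measured at 97.4, 118.3 and 116.2 CPM in wild type and 85.8, 96.0 and 89.9 CPM in transgenic libraries, without overlap (log2 fold change −0.29 ± 0.08 SE, adjusted p = 0.19, edgeR quasi-likelihood test). Rcc1 passed with DESeq2 (adjusted p = 0.0343) and with edgeR without wild-type replicate 1 (log2 fold change −0.37, adjusted p = 0.0207).

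**Figure D4:**
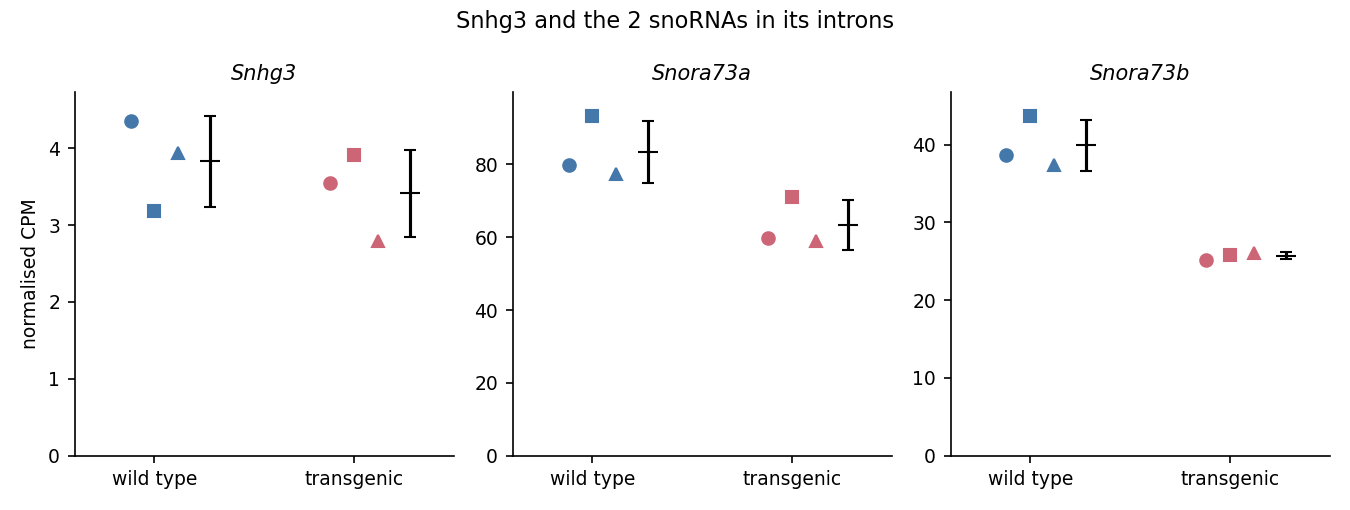
Normalised CPM (y axis, from 0) of the host Snhg3 and of Snora73a and Snora73b in each library (circles, squares and triangles for replicates 1, 2 and 3), with the mean and SD of 3 libraries. The 3 transgenic points of Snora73b lie at 25.2 to 26.1 CPM, below 37.4 to 43.6 CPM in wild type, while the points of Snhg3 overlap.

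Few of the small RNAs inside these genes were captured. GENCODE M21 holds 32 entries of small RNAs within the 8 genes, 28 of them snoRNAs. Of these, 10 lie in Gas5, 8 in Snhg1, 5 in Snhg12, 2 in Snhg5, 2 in Snhg3 and 1 in Snhg6. Snord80 of Gas5 and Snora16a of Snhg12 each have 2 overlapping entries, so these counts exceed the number of distinct snoRNAs. The table held 30 of the 32 entries, and the 2 without a row were the repeats of Snord80 and Snora16a. Of the 30, 26 were at 0 in every library, and all 26 were 130 bases or shorter. Over all transcripts listed, 3.71% of the 4847 of up to 130 bases had any fragments, against 16.4% of longer ones of up to 200 bases and 30.7% of those from there to 300 bases. Besides the Snora73 copies, Snora16a of Snhg12 had 1 to 19 fragments in a library and a 152-base RNA in Neat1 had 3 fragments in transgenic replicate 2. The zeros of short snoRNAs such as Snord47 or Snord78 of Gas5 therefore stand beside a length below which few RNAs of any kind were listed, and they give no level of these snoRNAs.

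Transcript by transcript, 53 models of the 8 genes could be tested and 0 passed over 38358 transcripts (0.0% of all passed, edgeR quasi-likelihood test). An unadjusted p under 0.05 was reached by 5 models, of which 3 belong to Malat1, 1 to Neat1 and 1 to Gas5, against 5.60% of all transcripts. DESeq2 on transcripts also called 0 of them and 0.957% of all (smallest adjusted p = 0.114). In the authors' deposited table the main Malat1 model had a log2 fold change of 0.31, the long Neat1 form 0.35, the short Neat1 form −0.06 and the 502-base Gas5 model 0.11. In the authors' deposited table the smallest q over the member transcripts was 0.998, and 0 of the 60 were marked as significant, against 111 transcripts in the whole table.

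Of other noncoding snoRNA hosts, 9 could be tested, with 5 above 0, 4 below and a median log2 fold change of 0.01. Snhg4 stood apart from them at 40.9, 41.5 and 50.0 CPM in wild type and 28.8, 36.5 and 31.2 CPM in transgenic libraries. Its groups did not overlap (log2 fold change −0.46 ± 0.12 SE, adjusted p = 0.17, edgeR quasi-likelihood test), and it passed with DESeq2 (adjusted p = 0.00923). The host next to it by p, 2810008D09Rik (Snhg20 by gene ID), was measured at 24.3 ± 0.61 CPM in wild type and 27.4 ± 3.38 CPM in transgenic libraries (SD, n = 3 each).

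Of protein-coding genes that host snoRNAs, mostly for ribosomal proteins and ribosome assembly, 42 were tested and 0 called. The log2 fold change lay below 0 in 37 of them, in some only in the third decimal, with a median of −0.07. Of all genes tested, 50.2% lay above 0. Lower at an unadjusted p under 0.05 (edgeR) were 9 and higher 0, against 7.70% and 5.71% of all genes. Ncl, the nucleolar protein nucleolin, was measured at 402, 500.5 and 460 CPM in wild type and 367, 366 and 344 CPM in transgenic libraries, without overlap (log2 fold change −0.34 ± 0.08 SE, adjusted p = 0.16, edgeR quasi-likelihood test). Ncl passed in 5 of 17 alternatives, DESeq2 among them (adjusted p = 0.00116), and its adjusted p reached 0.499 at most. Rps2, a protein of the small ribosomal subunit, was measured at 1853 ± 86.3 CPM in wild type and 1683 ± 31.1 CPM in transgenic libraries.

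Of the proteins that bind and assemble snoRNAs, 17 were tested and 15 lay below 0, with a median of −0.18 and 0 called. At an unadjusted p under 0.05 (edgeR), 10 were lower and 0 higher, against 7.70% and 5.71% of all genes. The CPM groups of 8 did not overlap, against 18.8% of all genes. Nop56, Nop58 and Dkc1 are also among the protein-coding hosts above, so these lists are not separate observations. Nhp2l1 (Snu13), which binds the kink-turn of box C/D snoRNAs, was measured at 211 ± 13.2 CPM in wild type and 178 ± 8.06 CPM in transgenic libraries (log2 fold change −0.24, adjusted p = 0.18, edgeR quasi-likelihood test). Rpap3, part of the R2TP assembly complex, was measured at 74.1 ± 0.46 and 62.7 ± 2.01 CPM (log2 fold change −0.24, adjusted p = 0.18, edgeR quasi-likelihood test). DESeq2 called 5 of the 17, all lower, and edgeR without wild-type replicate 1 called 5 as well, against background shares of 5.23% and 3.32%. Limma on log2(FPKM + 0.5) and edgeR with the replicate block called 0 of the 17 (0.0167% and 0.0955% of all genes). Without the libraries with Y-linked RNA, edgeR called 1, lower (1.76% of all genes).

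Among the proteins that meet Malat1 or Neat1 in the nucleus, 14 of 19 paraspeckle proteins lay below 0 (median −0.06) and 13 of 20 nuclear speckle proteins did (median −0.02), with 0 called in either list. Hnrnpa1, a splicing regulator found in paraspeckles, was measured at 1193 ± 123 CPM in wild type and 1045 ± 49.1 CPM in transgenic libraries, and Smarca4, a chromatin remodelling ATPase, at 856 ± 59.8 and 956 ± 66.3 CPM. Thoc1, of the mRNA export complex THO, was measured at 63.9 ± 5.69 and 53.4 ± 2.94 CPM and the splicing factor Srsf1 at 960 ± 70.1 and 855 ± 36.5 CPM (SD, n = 3 in every group). Without wild-type replicate 1, Hnrnpa1 (log2 fold change −0.27, adjusted p = 0.0262) and Srsf1 (log2 fold change −0.23, adjusted p = 0.0460) passed in edgeR. Factors of RNA ends, turnover and m6A, such as RNase P and the methyltransferases, had 11 of 15 below 0 and a median of −0.05. Their genes with the smallest p were Mettl16, a methyltransferase that binds the triple helix at the Malat1 end, at 94.3 ± 1.85 and 85.6 ± 5.06 CPM, and Pop5, an RNase P subunit, at 50.7 ± 3.32 and 56.5 ± 4.03 CPM.

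Nonsense-mediated decay factors, which act on spliced host RNAs, were split evenly by sign, with 10 above and 10 below 0, a median of 0.005 and 0 called. At an unadjusted p under 0.05 (edgeR), 3 were higher and 3 lower, against 5.71% and 7.70% of all genes. The CPM groups of 9 of the 20 did not overlap, against 18.8% of all genes. Their summed level was 2588 to 2690 CPM in wild-type libraries and 2702 to 2770 CPM in transgenic ones. The 2 factors with the smallest p were both of the exon junction complex and both lower. Magoh stood at 81.3 ± 4.16 CPM in wild type and 68.1 ± 1.27 CPM in transgenic libraries, and Eif4a3 at 212 ± 13.4 and 184 ± 4.24 CPM (SD, n = 3 each). Glucocorticoid receptor targets, included because Gas5 RNA can bind the receptor, had 7 of 9 tested genes above 0, a median of 0.32 and 0 called. Ddit4, an inhibitor of the mTORC1 kinase, was measured at 23.2, 37.0 and 28.1 CPM in wild type and 53.5, 46.5 and 48.6 CPM in transgenic libraries, without overlap (log2 fold change 0.75 ± 0.15 SE, adjusted p = 0.16, edgeR quasi-likelihood test). Ddit4 passed in 4 of 17 alternatives, with its smallest adjusted p of 5.5e-05 in DESeq2. The circadian gene Per1 was measured at 20.9 ± 6.85 and 30.3 ± 4.68 CPM (SD, n = 3 each).

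Other nuclear or long noncoding RNAs had 7 of 11 tested genes above 0 and a median of 0.16, with 0 called. Their summed level leaned the other way, with overlap, at 2523 to 3123 CPM in wild-type libraries and 2339 to 2565 CPM in transgenic ones. The CPM groups of 2 of the 11 did not overlap, against 18.8% of all genes. Terc, the RNA template of telomerase, was measured at 51.1, 51.3 and 52.8 CPM in wild type and 66.1, 56.0 and 59.0 CPM in transgenic libraries, without overlap (log2 fold change 0.22 ± 0.08 SE, adjusted p = 0.28, edgeR quasi-likelihood test). Firre, an X-linked nuclear RNA, was measured at 34.8, 35.0 and 33.2 CPM and at 38.5, 38.4 and 38.2 CPM, again without overlap (log2 fold change 0.16 ± 0.08 SE, adjusted p = 0.40, edgeR quasi-likelihood test).

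**Figure D5:**
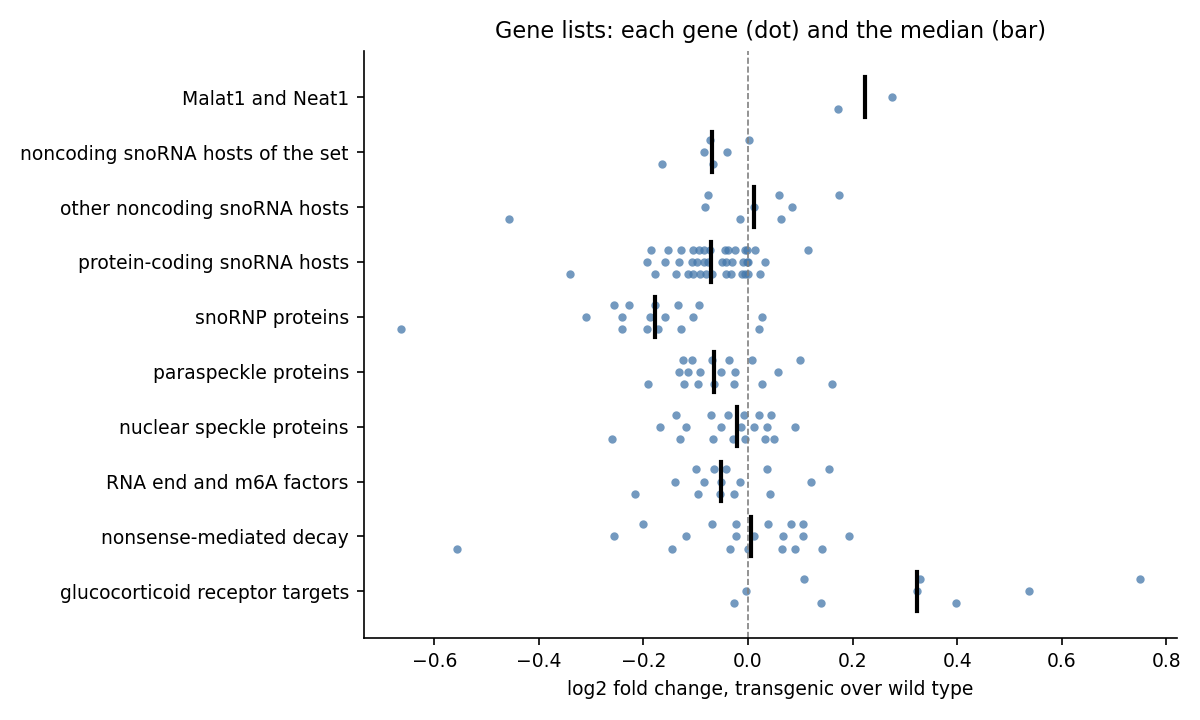
Log2 fold change (x axis, transgenic over wild type) of each tested gene (dots, spread vertically for legibility) in 10 gene lists, with the median of each list (bar). The median is 0.22 for Malat1 and Neat1, −0.07 for the hosts of the set, −0.18 for snoRNP proteins and 0.32 for glucocorticoid receptor targets, beside 0.001 over all genes tested.

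Genes with the most similar course over the 6 libraries were looked up for 4 of the RNAs, as the smallest root-mean-square distance between centred log2(CPM + 0.5) values among 9033 genes of at least 10 CPM. For Malat1 these were Pld3 (distance 0.02) and Gimap1 (0.02), and for Neat1 they were Notch1 (0.01), Kmt2e (0.02) and Ip6k2 (0.02). For Gas5 they were Pbrm1, Mios and Rif1, and for Snhg1 they were Gemin5, Ing2 and Tbc1d10b, all at 0.02 or closer (rounded). Malat1 itself deviated from its mean by 0.19, Neat1 by 0.11, Gas5 by 0.08 and Snhg1 by 0.05 on this scale. With 6 libraries, such likeness is a description.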

How the data were processed

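RNA of 3 wild-type and 3 transgenic libraries was analysed. Per the submitters' processing notes the tools were TopHat2 and Cuffdiff, without versions, on mm10. Annotation, read length and strandedness are not stated there, and overlapping genes cannot be told apart. Per transcript the authors deposited estimated counts of fragments and FPKM. Per the file headers the table also holds the authors' own log2 fold change with its p-value and q-value, and a test score not used here. The authors' estimates had failed at 197 genes (listed at 0 in wild type), no member among them, which the main test leaves out. Per-sample columns without a labelled sample numbered 0.

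Expected counts were summed per symbol, rounded, filtered with filterByExpr (minimum count 10, minimum total 15), TMM-scaled and tested with edgeR 4.0.16 (R 4.3.3) over 14653 genes, two-sided, with Benjamini-Hochberg adjustment and a threshold of 0.05. Intervals of 95% use the fit's standard error and degrees of freedom. Transcripts were tested likewise. Alternatives were DESeq2 1.42.0, limma 3.58.1 on log2(FPKM + 0.1) and log2(FPKM + 0.5) for a mean FPKM of 1 or more, no filter, other scalings, the replicate number as a block and leaving out each library. Chosen after seeing the data were 3 more. A chi-square per gene of 16.5 to 43.8 between libraries of a group showed no duplicates.

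In simulated data the test called 27.4% of 1.41-fold, 65.6% of 2-fold and 84.1% of 4-fold changes among 14653 genes in this comparison. Each gene was simulated on its own, without deviations that genes share within a library, and genes of all levels were pooled. These shares are therefore not the power for any member in the real libraries. The members and gene lists were chosen with earlier results of these data known. The genes named are every member, Gata3 and, from each list, the called genes (up to 4) or else the 2 with the smallest p. Rcc1 was added. Some markers and a gene of similar course are not reported here.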

Additional observations from a re-analysis of the deposited data

How the results depend on the processing

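The number of genes called was 2 and moved with the tool and the libraries. It was 497 with DESeq2, 4 with limma on log2(FPKM + 0.1), 127 without a filter and 1 to 498 leaving out each library, where 498 is without wild-type replicate 1. Of the fits chosen after seeing the data, the covariate for Y-linked RNA gave 256, the fit without those 2 libraries 260 and keeping the failed loci 92. The replicate block gave 14 genes and 0 transcripts. The labels give no reason to pair the numbers, so the block counts here as 1 of the alternatives. Correlations of same-numbered libraries, taken on deviations from the group means, were 0.263, 0.437 and −0.065. Those of differently numbered libraries ran from −0.523 to 0.368. Whether same-numbered libraries share more than a number was not tested. Transcripts called were 0 in the main test (2147 at an unadjusted p under 0.05), 396 with DESeq2 and 0 to 1 leaving out each library. The cause of these shifts was not tested.

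Malat1, Neat1, Gas5 and Snhg5 kept their direction in all 17 alternatives. None of the 30 named genes was called in the main test, so no call could be lost. Of their 507 values over the alternatives, 461 kept direction and stayed uncalled, 33 became called and 13 turned sign, all 13 with values near 0. Snhg1 turned to 0.001186 and 0.001205 with limma and spanned −0.07743 to 0.003413 leaving out each library. Snhg3 turned to 0.03087 and 0.03018 with limma and 0.06308 without the libraries with Y-linked RNA. Snhg6 spanned −0.1453 to 0.005145 leaving out each library. Snhg12 turned to −0.006632 with the replicate block and −0.05497 without the libraries with Y-linked RNA, and spanned −0.07246 to 0.1171 leaving out each library. Among main transcripts, leaving out each library gave −0.1824 to 0.02407 for the short Neat1 form, −0.002534 to 0.1667 for Gas5, −0.04391 to 0.04544 for Snhg1 and −0.06602 to 0.0728 for Snhg6.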
